A study of Mus musculus with 2 samples.

Results

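Clusters of UPF1-bound RNA fragments were examined in long non-coding RNA (lncRNA) loci, apart from a set of named lncRNA genes. A cluster was taken when at least 1 base of it overlapped exactly 1 locus of the RefSeq annotation of GRCm38 and that locus was of type lncRNA. Malat1, Neat1, Meg3, Miat, Sox2ot, Tug1, Rmst, Gas5, Zfas1 and symbols starting with Snhg were left out. This gave 1238 of the 123349 deposited clusters, in 192 of 12704 eligible lncRNA loci. The rule uses no fold or p, but it was set with earlier results of these data known.

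The data come from enhanced crosslinking and immunoprecipitation (eCLIP), in which RNA crosslinked to a protein is trimmed, pulled down with it and sequenced. Mouse neural progenitor cells from cortex, genotype Upf2fl/fl, were used for both libraries, which carry the label MOCK, with no explanation of the word. The pair consisted of 1 immunoprecipitate made with an antibody against UPF1 and 1 input. Without replicates there is no test between conditions, and all values below describe this pair of libraries. The Upf2fl/fl allele is carried by the input too, and the labels name no Cre recombinase. Clusters lay on all 8 progenitor markers and all 4 astrocyte markers examined, on 3 of 4 oligodendrocyte lineage and 3 of 4 neuronal markers. Over all protein-coding loci, 9445 of 21900 had a cluster that overlapped no other locus. Of the markers of other cell types, 0 of 3 for microglia, 0 of 2 for endothelium and 1 of 2 for fibroblasts had a cluster. These are too few markers to call a cell type absent. In such a pool of cells, fewer cells that make an RNA and less of it per cell cannot be told apart.

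UPF1 is an RNA helicase that binds RNA broadly, is displaced from coding sequence by translating ribosomes, and drives nonsense-mediated decay together with UPF2 and the SMG proteins. LncRNAs are longer transcripts without a known protein product. Some stay in the nucleus as regulators of nearby genes, some are spliced hosts from which microRNAs are cut, and some reach the cytoplasm, where ribosomes and decay factors can meet them. Many lncRNA loci lie close to, or run antisense to, protein-coding genes, so that the strand of a cluster matters for naming its RNA.

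The microRNA hosts among these loci include all 3 loci that carry a miR-9 hairpin, a microRNA of neural progenitors. The mature sequences, credited to RefSeq with build GRCm38.p6, are shown because the hairpin defines each host and because the 3 hosts give the same product. Letters in capitals mark the seed, bases 2 to 8.
mmu-miR-9-5p: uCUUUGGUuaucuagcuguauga
mmu-miR-9-3p: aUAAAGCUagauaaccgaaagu
mmu-miR-125b-5p: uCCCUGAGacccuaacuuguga
The miR-9 pair is encoded in Gm3764 (Mir9-1, chromosome 3), C130071C03Rik (Mir9-2, chromosome 13) and Mir9-3hg (chromosome 7), and miR-125b-5p in Mir100hg (chromosome 9). The seeds of miR-9-5p and miR-125b-5p differ.

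Few clusters could be read as sequence, because the tables hold only 300-base windows around annotated starts. A cluster from the Nr2f1 window, the nearest to the start of the 3 that lie there on the strand of Nr2f1, and the cluster at the start of Rab10os are given from RefSeq GRCm38.p6, with the bases of the cluster in capitals and up to 20 flanking bases in lower case, in the 5′ to 3′ direction. They are shown because they mark clusters at a transcript's start, and because the first lies on the strand opposite to its lncRNA locus.
Nr2f1 upstream cluster (chr13:78198908-78198982, minus strand): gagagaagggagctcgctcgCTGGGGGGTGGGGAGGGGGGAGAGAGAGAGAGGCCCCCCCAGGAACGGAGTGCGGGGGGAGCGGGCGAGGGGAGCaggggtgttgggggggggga
Rab10os start cluster (chr12:3235753-3235798, plus strand): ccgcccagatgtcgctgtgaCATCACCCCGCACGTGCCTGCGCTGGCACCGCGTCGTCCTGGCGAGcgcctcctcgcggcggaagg
The bases G and C make up 77.3% of the Nr2f1 cluster printed and 73.9% of that of Rab10os, where the median over all 32851 windows is 52.7% (quartiles 45.7 and 61.7).

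UPF1 was rarely enriched on these lncRNA loci. A cluster was called enriched at a log2 fold over input of at least 3 with a −log10 p of at least 3, both values being the authors'. Of the 1238 clusters, 26 were enriched, 2.10% (Wilson 95% interval 1.44 to 3.06), where the share over all clusters was 11.6%. Of the 26 calls, 15 rest on an input count of 1, which may stand for no read, and 11 on more. At 5000 bases or more from protein-coding loci the share was 1.06%. The share in sole protein-coding loci was also 11.6% (13114 of 112681), and that in the lncRNA genes left out was 2.82% (5 of 177). Counted by locus, at least 1 call was found in 12 of 192 (6.25%, interval 3.61 to 10.6) and in 3097 of 9445 protein-coding loci, 32.8% (interval 31.9 to 33.7). With an input count of 2 or more asked for, 7 of the 12 loci had a call. At any input count, 4 loci had a call at 5000 bases or more from protein-coding loci. Intervals on shares treat clusters or loci as independent, cover counting error only, and are likely too narrow for clusters of the same locus.

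The median fold was low and rests on few reads. The median log2 fold was 0.56 (quartiles -0.29 and 1.03), against 0.68 in protein-coding loci (quartiles -0.02 and 1.78). A log2 fold of 0.56 is the value of 3 immunoprecipitate reads against 1 input read. The interval of a single cluster with these counts is -3.08 to 6.27, so it cannot be placed above, at or below input. The upper quartiles lay further apart than the medians, and the lower quartile was also lower in the lncRNA loci. Folds above 0 were found for 814 clusters, 65.8%, against 73.3% in protein-coding loci. Width did not set them apart, with a median of 68 nt against 67 nt.

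**Figure D1:**
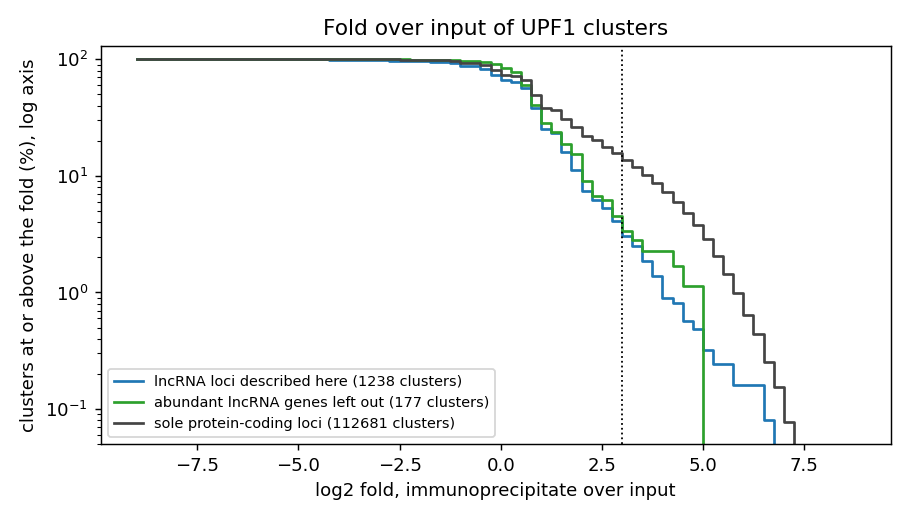
Share of clusters (vertical log axis, %) at or above each log2 fold over input (horizontal axis), for the 1238 clusters of the lncRNA loci, the 177 clusters of the lncRNA genes left out and the 112681 clusters of sole protein-coding loci. The dotted line marks a log2 fold of 3, past which the protein-coding curve lies above both lncRNA curves.

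The 192 loci held unequal numbers of clusters. A single cluster was found in 78 of them, 2 to 4 in 62 and 5 or more in 52. The pair of loci with the most, 2610307P16Rik and Mir99ahg, held 271 clusters, 21.9% of the total, and the 10 with the most held 610, 49.3%. Symbols that end in Rik or consist of Gm and a number made up 150 of the 192 loci (78.1%). What is known of the function of these RNAs was not looked up. The median over loci of the highest fold was 0.98. It was at or below 0 in 20 loci, between 0 and 3 in 154 and at least 3 in 18.

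The strand of the cluster separated the enriched clusters into different kinds. The RefSeq promoter table gives a strand for 156 of the 192 loci, and 1094 clusters lay in these. Of the 1094, 74 were on the opposite strand, 6.76% (Wilson interval 5.42 to 8.41), against 161 of 88921 in protein-coding loci, 0.181% (interval 0.155 to 0.211). The opposite-strand clusters fell in 21 loci, and 18 of them lay in AY036118, without which the share was 5.20%. Of the 23 enriched clusters with a known strand, 14 were on the strand of the lncRNA and 9 on the opposite strand. The enriched share was 1.37% on the lncRNA strand (14 of 1020, interval 0.819 to 2.29) and 12.2% on the opposite strand (9 of 74, interval 6.53 to 21.5). The opposite-strand clusters lie antisense to the annotated lncRNA, so the name of the locus does not give the RNA that was bound there.

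**Figure D2:**
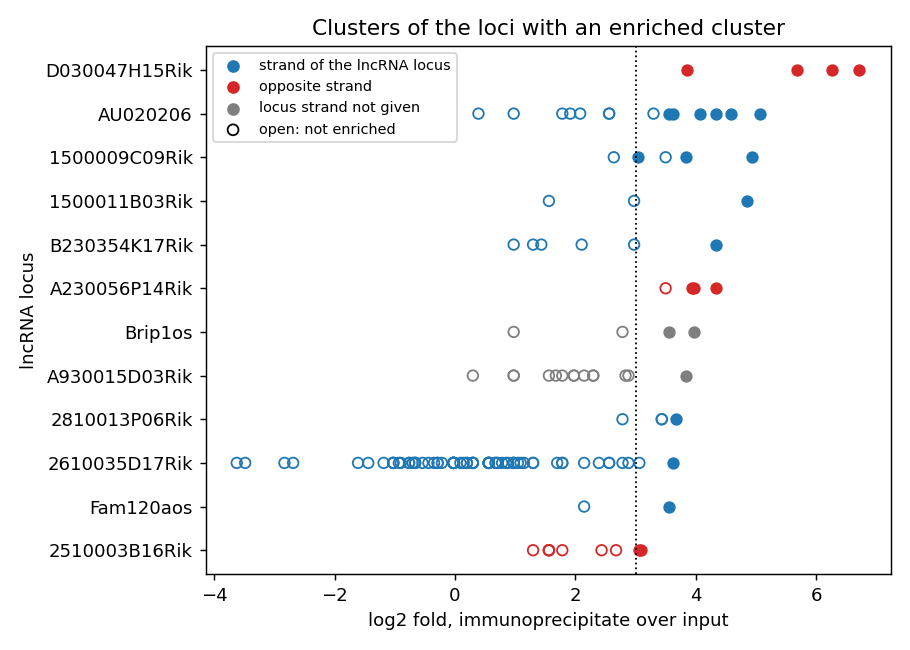
Log2 fold over input (horizontal axis) of every cluster in the 12 loci with an enriched cluster (vertical axis), each point a cluster, filled where enriched and coloured by strand. All clusters of D030047H15Rik, A230056P14Rik and 2510003B16Rik lie on the strand opposite to the locus, and the dotted line marks a log2 fold of 3.

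Every opposite-strand enriched cluster lay just past the 3′ end of a protein-coding locus on its own strand. The distances ran from 99 to 994 nt, and 3 loci and 3 coding neighbours account for all 9 clusters. Of the 14 enriched clusters on the lncRNA strand, none lay within 5000 nt past such an end. Of the clusters that were not enriched, 13 of 65 on the opposite strand did, against 11 of 1006 on the lncRNA strand (1.09%). A strand was given for 17492 of 21900 protein-coding loci, 79.9%, and the others could not be used here. Whether these clusters belong to longer 3′ ends of the coding transcripts was not tested.

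The highest fold of all 1238 clusters belonged to this kind. D030047H15Rik (chromosome 7, 4126340 to 4136926, minus strand) overlaps Ttyh1, a tweety-family membrane protein of neural cells, which is transcribed from the plus strand. All 4 of its clusters were on the plus strand and enriched, and the first began 99 nt past the end of Ttyh1. Their log2 folds were 6.72 (interval 4.22 to 12.03, from 214 reads against 1), 6.26 (156 against 1), 3.85 (235 against 8) and 5.68 (209 against 2). The gap to the Ttyh1 end grew in that order from 99 to 145, 436 and 994 nt. The last of them lay closer, at 520 nt, to the start of Leng8, the next gene on that strand. A further 24 clusters lay on D030047H15Rik together with another locus and were therefore not counted here. All 24 were enriched, with a highest fold of 7.28.

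A230056P14Rik (chromosome 7, 55962531 to 55980096, plus strand) lies against the 3′ end of Nipa1, a magnesium transporter on the minus strand. Its 4 clusters were all on the minus strand, 176 to 756 nt past that end, and 3 were enriched. Their log2 folds were 4.33 (interval 3.19 to 5.79, from 246 reads against 6), 3.98 (32 against 1) and 3.93 (31 against 1). The cluster that was not enriched had a fold of 3.50 from 23 reads against 1 and missed the p threshold.

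2510003B16Rik (chromosome 4, 116123840 to 116138841, plus strand) had 9 clusters, all on the minus strand, on which Lurap1 ends nearby. The enriched pair, at 164 and 279 nt past that end, had log2 folds of 3.06 (34 reads against 2) and 3.09 (52 against 3). The 7 others, from 83 to 3510 nt, had folds from 1.30 to 2.68. The one nearest to the coding end, at 83 nt, had 2.44 (11 against 1), so the order of the folds did not simply follow the distance.

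**Figure D3:**
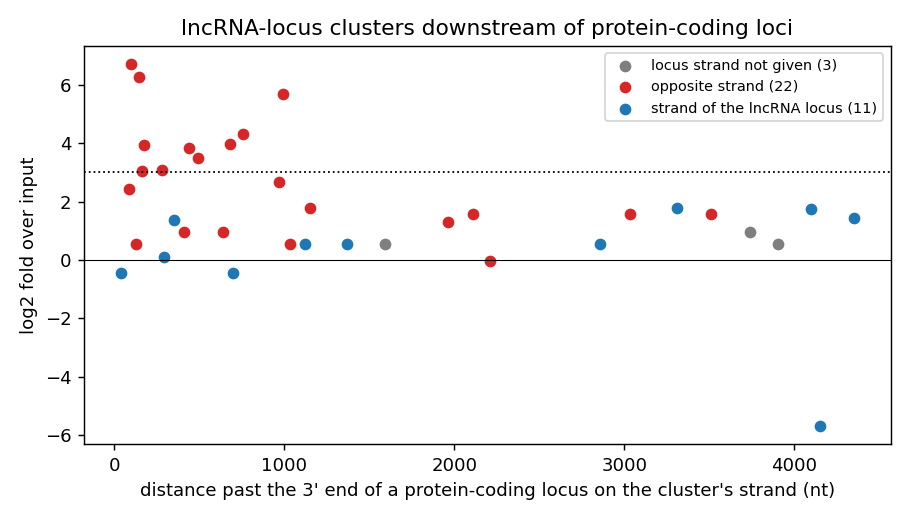
Log2 fold over input (vertical axis) against the distance in nt past the 3′ end of the nearest protein-coding locus on the strand of the cluster (horizontal axis, up to 5000 nt), for 22 opposite-strand clusters, 11 clusters on the strand of the lncRNA and 3 in loci without a given strand. The 9 enriched opposite-strand clusters lie within 994 nt and above the dotted line at 3, as does a cluster of A230056P14Rik at 3.50 that was not called.

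Other opposite-strand clusters lay before the start of a coding gene. A830082K12Rik (chromosome 13, 78198017 to 78236564, plus strand) runs away from Nr2f1, a nuclear receptor transcription factor of cortical patterning on the minus strand. Of its 21 clusters, 4 were on the strand of Nr2f1, 35, 170, 233 and 532 nt before the annotated outer start of that gene. The log2 fold of the cluster printed above was 2.25 (interval 0.56 to 4.61, from 29 reads against 3). The next ones had folds of 1.27 (54 against 11) and 1.03 (54 against 13), and the farthest 2.05 (42 against 5). None was enriched, and the lower bounds of all 4 were above 0. In Rab10os, the printed cluster began 38 nt before the annotated start and had 3 reads against 1, which is too few to place it above or below input.

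Enriched clusters on the lncRNA's own strand were found in 7 loci. AU020206 (chromosome 7, 75769038 to 75782120, minus strand) had the most, 6 of 14 clusters. These 6 lay in 962 nt of the locus, 8883 to 9752 nt from its 3′ end, and the nearest protein-coding locus was more than 20000 nt away. From 75777869 upwards their log2 folds were 4.06, 4.33, 5.06, 4.59, 3.56 and 3.62, from 34, 82, 68, 49, 24 and 25 immunoprecipitate reads. The highest had an interval of 2.54 to 10.39, from 68 reads against 1. The other 8 clusters of AU020206, nearer to its 3′ end, had folds from 0.39 to 3.30, so that the calls, but not all of the signal, fell in a stretch inside the locus.

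1500009C09Rik (chromosome 15, 82252472 to 82260746, plus strand) had 3 of 5 clusters enriched, 195 to 734 nt from its 3′ end. Their folds were 3.83 (58 reads against 2), 3.04 (67 against 4) and 4.94 (lower bound 3.06, from 125 against 2). The remaining pair had 3.50 and 2.64, and the lower bound lay above 0 in all 5. In this locus the signal was at the 3′ end, unlike in AU020206.

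Each of the other 5 loci had 1 enriched cluster on its own strand. 1500011B03Rik (chromosome 5) reached 4.86 (interval 2.32 to 10.19, from 59 reads against 1), 362 nt from its 3′ end. B230354K17Rik (chromosome 17) reached 4.33 (41 against 1), 3840 nt from its end. Fam120aos (chromosome 13), whose cluster lies 1443 nt from the locus of Fam120a, reached 3.56 (interval 1.96 to 5.87, from 72 against 3), 355 nt from its end. 2810013P06Rik (chromosome 8) reached 3.68 (26 against 1), and its other 3 clusters had folds from 2.78 to 3.44. 2610035D17Rik (chromosome 11, 113043906 to 113201838) had 1 enriched of 70 clusters, at 3.62 (25 against 1) and 724 nt from its end, while the median of the 70 was 0.25. The reads behind 2810013P06Rik and 2610035D17Rik are the fewest of the 5, and their lower bounds were 1.07 and 1.01.

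In a pair of further loci the table gives no strand. Brip1os (chromosome 11) had 2 of 4 clusters enriched, with folds of 3.56 (48 reads against 2) and 3.98 (32 against 1). They lay 2205 and 1703 nt from the locus of Ints2, an Integrator subunit. A930015D03Rik (chromosome 17) had 1 of 14 enriched, at 3.83 (29 against 1), and all 14 of its clusters had a fold above 0.

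Position along the locus was examined for clusters on the lncRNA strand. Within 1000 nt of the annotated 3′ end 6 of 81 clusters were enriched, 7.41% (Wilson interval 3.44 to 15.2), against 3969 of 11116 in protein-coding loci, 35.7% (interval 34.8 to 36.6). Between 5000 and 20000 nt the shares were 2.96% (6 of 203, all in AU020206) and 4.52%. Beyond 20000 nt there were 0 calls among 611 clusters, a count that permits up to 0.491%, and the protein-coding share there was 0.457%. Of the lncRNA clusters, 59.9% lay beyond 20000 nt, and of the protein-coding ones 52.5%. The median fold rose from 0.30 beyond 20000 nt to 1.30 in the last 1000 nt, while in protein-coding loci the last 1000 nt had a median of 2.68. Introns count in these distances, since exons were not mapped here.

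Depth limits most single values. Reads were reconstructed for 813 of the 814 clusters above input, with a median of 6 immunoprecipitate reads and 1 input read, and an enriched cluster held at least 24. Of the 813, 719 held fewer (88.4%), and could not have been called. Among the 94 with 24 or more, 26 were enriched (27.7%, interval 19.6 to 37.4), against 12934 of 17303 in protein-coding loci (74.8%, interval 74.1 to 75.4). Gm3764 alone held 36 of the 94, with 0 calls, and without it the share was 44.8% (26 of 58, interval 32.7 to 57.5). The median input was 5.5 reads for the 94, 3 without Gm3764 and 2 in protein-coding loci. Within 5000 nt of the 3′ end, on the locus strand and at this depth, 8 of 23 were enriched (34.8%, interval 18.8 to 55.1), or 8 of 16 without Gm3764, against 84.1% in protein-coding loci. Immunoprecipitate reads are part of the fold, so this is a description at like depth and not an independent comparison.

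Among clusters above input that were not enriched, the 10 with more than 100 reads lay in hosts of miR-9, 9 in Gm3764 and 1 in Mir9-3hg. Gm3764 (chromosome 3, 88206673 to 88229959), host of Mir9-1, had 43 clusters. Of those above input, 36 held 24 or more reads. Their folds ran from 0.02 to 2.73 with a median of 1.11, none was enriched, and the upper bound lay below 3 in 30 of the 36. The deepest of the 36 had 377 reads against 62 and a fold of 1.58 (interval 1.19 to 1.99). It was thus above input and below the threshold, with depth no limit.

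Mir9-3hg (chromosome 7, 79500026 to 79534403) had 37 clusters with a median of 0.98. Its deepest cluster above input had 170 reads against 32 and a fold of 1.39 (interval 0.83 to 1.98). Its highest fold, 3.22, came from 19 reads against 1 and was not called. C130071C03Rik (chromosome 13, 83721381 to 83741308), host of Mir9-2, had 21 clusters with a median of -0.02 and a highest fold of 0.98. Its deepest cluster above input had 69 reads against 19 and a fold of 0.84 (interval 0.09 to 1.65). The deepest clusters above input of Gm3764 and C130071C03Rik overlap in these intervals.

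**Figure D4:**
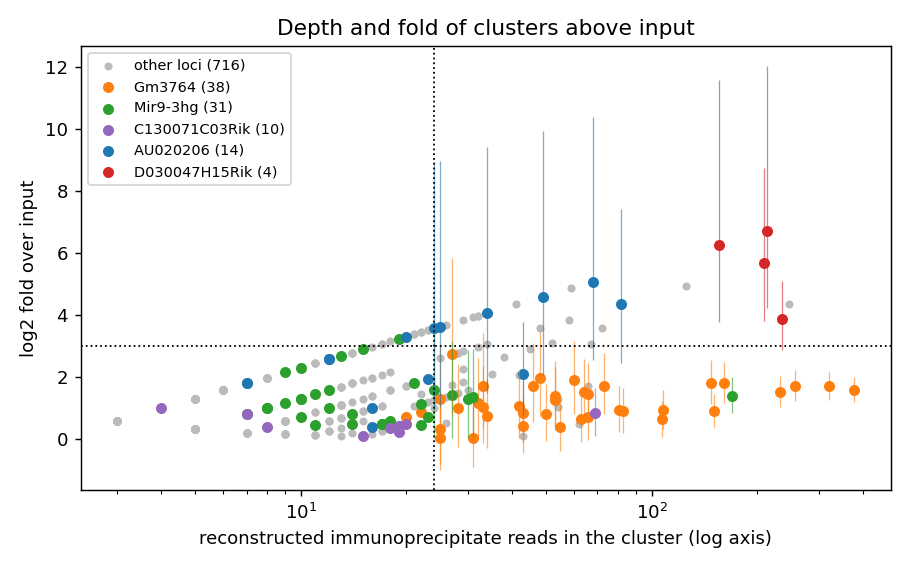
Log2 fold over input (vertical axis) against reconstructed immunoprecipitate reads (horizontal log axis) for clusters above input, each point a cluster, with exact 95% counting intervals for named loci at 24 reads or more (vertical dotted line). Gm3764 reaches 377 reads while staying below a fold of 3 (horizontal dotted line), whereas the enriched clusters of AU020206 and D030047H15Rik lie above it at fewer reads.

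Of the hairpins named here, only that of Mir125b-1 carried clusters. Clusters cover a small part of these loci, for example 3582 of 23287 nt in Gm3764. A short hairpin without a cluster is therefore not a trait of hairpins. A cluster on a hairpin overlaps the microRNA locus too and could not be counted here, but in the whole file none covered the hairpins of Mir9-1, Mir9-2, Mir9-3, Mir100, Mirlet7a-2, Mir16-1 or Mir22. The nearest counted clusters lay 60 nt from Mir9-1 (fold 1.02), 1 nt from Mir9-2 (fold -0.39) and 140 nt from Mir9-3 (fold 1.41). The Mir125b-1 hairpin, which gives the miR-125b-5p printed above, had 2 clusters, with folds of 0.20 and 0.98. Mature microRNAs cut from a hairpin are shorter than most of these clusters, and whether this bears on the counts was not tested.

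In other loci with many clusters the medians lay near input. 2610307P16Rik (chromosome 13, 28460034 to 28885422) had 139 clusters with a median of 0.56 and a highest fold of 3.06 from 17 reads against 1. Its medians were 0.52, 0.44 and 0.56 when the locus was cut into parts of equal length from its 5′ to its 3′ end. Mir99ahg (chromosome 16, 77329328 to 77558428), named as a host of miR-99a, had 132 with a median of -0.02, and 76 of them lay at or below 0. Gm4258 (chromosome 1) had 61 with a median of -0.22, and Dleu2 (chromosome 14), host of miR-16-1, 56 with 0.39. All 28 clusters of Mir100hg (chromosome 9) lay in the 3′-most of these parts, with a median of 0.15.

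**Figure D5:**
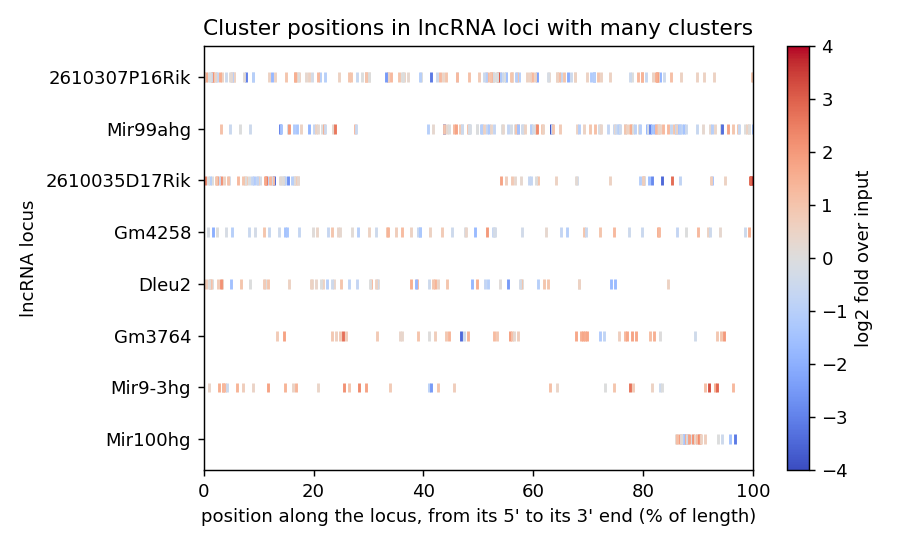
Position of each cluster along 8 lncRNA loci with many clusters, from the 5′ to the 3′ end in percent of the locus length (horizontal axis), with the colour giving log2 fold over input. The 28 clusters of Mir100hg sit toward the 3′ end, while those of 2610307P16Rik and Gm4258 spread over the locus.

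Of 51 well-studied lncRNAs listed, 17 had a counted cluster, 467 in all. Clusters that also overlap another locus were not counted, so the others may still have clusters. Of the 467, 0 were enriched, where the share was 2.10% over the 1238 clusters and 11.6% over all clusters. Such a count still permits up to 0.642% if clusters are independent. However, 139 of them lay in 2610307P16Rik and 132 in Mir99ahg. Their highest folds ran from 0.15 to 3.22 with a median of 1.56. Oip5os1, the Cyrano RNA that triggers decay of miR-7, reached 2.88 (interval 0.18 to 8.28, from 15 reads against 1), and its 3 clusters all lay above 0. Pvt1, a neighbour of Myc, had 15 clusters and reached 1.56. Pantr1, a neighbour of the neural transcription factor gene Pou3f3, had 13 and reached 1.78. Ftx and Jpx, which act in X inactivation, reached 1.39 (16 reads against 3) and 1.30 (15 against 3). Airn, the imprinted silencer of Igf2r, had 3 clusters up to 0.56, Firre, an X-linked nuclear RNA, 2 up to 0.15, and Lncpint, a p53-induced RNA, 3 up to 0.30. Trp53cor1, the lincRNA-p21, had 2 up to 0.98, and Mir22hg 1 at 0.56. Epb41l4aos reached 2.15 from 9 reads against 1. Among those of the 467 clusters that lay above input, only 10 held 24 or more reads, and the others could not have been called. Clusters at or below input fell short of the fold threshold, and their reads were not reconstructed.

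Folds far below input were more frequent than elsewhere. A log2 fold of -3 or lower was found for 29 of the 1238 clusters, 2.34% (Wilson interval 1.64 to 3.34), where the share over all clusters was 0.468%. In protein-coding loci it was 0.324%. They lay in 10 loci, and 15 of the 29 in AY036118. Without that locus the share was 1.15% (14 of 1220, interval 0.685 to 1.92). For such folds the file lists a −log10 p of 0, so they carry no test.

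AY036118 (chromosome 17, 39848112 to 39898385, minus strand) had 18 clusters, all on the plus strand within 565 nt, beginning after a gap of 10 nt from Rn18s-rs5, a locus annotated as an 18S ribosomal RNA pseudogene. Their folds ran from -4.59 to -2.55 with a median of -3.58, all below input. The smallest whole counts that give these folds were large, for example 191 immunoprecipitate against 2010 input reads. Ribosomal RNA copies share reads, so the place and level of these clusters are uncertain, and they lie antisense to the annotated lncRNA.

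The lowest fold was that of the only cluster of Dancr (chromosome 5, 74093060 to 74094337), an RNA named for keeping human epidermal progenitors undifferentiated, at -6.01. The smallest whole counts that give it were 13 reads against 413. 1110038B12Rik (chromosome 17, 34950235 to 34952471) had 1 cluster of 38 nt at -5.70 (at least 2 against 51), while its other clusters had 1.56 and 2.78. Mir99ahg had 4 clusters at -3 or lower, down to -4.45 (at least 4 against 43), and Gm3764 had 1, at -3.45 (at least 58 against 311). In 1110038B12Rik, Mir99ahg and Gm3764, clusters far below input and clusters above it thus lay on the same strand of the same locus.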

How the data were processed

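Both libraries are described by the labels as eCLIP of neural progenitor cells. The members and gene lists were chosen with earlier results of these data known. Per the submitters' processing notes, UMI-tools, cutadapt, STAR and the build mm10 were used. Cluster caller and filters: not given in the sources used here. No header comes with the deposited table. From its values and customary layout, 1 column was taken as the log2 fold of immunoprecipitate over input that the authors computed, and another as the −log10 p that the authors deposited, capped at 400. A −log10 p of 0 stands beside each of the 32999 folds that do not exceed 0. No library totals are in the table.

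Clusters were intersected with RefSeq loci of GRCm38.p6. The strand of a locus came from the RefSeq promoter table (250 bases before to 50 after each start). Reads were reconstructed by searching whole counts whose ratio, with a log2 scale of 1.02 between libraries (3 reads against 1 for the commonest fold), gave the fold, and whose binomial (under 5 reads) or chi-square p came within 0.05 or 1% of the −log10 p. This matched 90018 of 90107 clusters (99.9%) and was tested on simulated data. An input of 1 may stand for no reads. The 95% intervals, for counting error only, are Wilson's for shares and exact Clopper-Pearson ones for folds. No p-value was computed, since there is 1 library a group. Named loci were those with an enriched cluster, the 10 with the most clusters, the highest or the lowest folds, listed known lncRNAs and microRNA hosts named Mir to hg. Of these, Mir670hg, Gm4876, 5330434G04Rik and 5430405H02Rik had no enriched cluster and are not described. Rab10os did not meet the rule and was added for the position of its cluster. Python 3.11.15, pandas 2.3.3 and scipy 1.17.1 were used.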

Additional observations from a re-analysis of the deposited data

How the results depend on the processing

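The share of enriched clusters, 2.10%, was 8.72% when clusters that also overlap loci of other kinds were allowed, 1.06% at 5000 bases or more from protein-coding loci and 1.37% on the strand of the locus. It lay between 1.93% and 2.69% under the other alternatives run. The 26 enriched clusters became 11 when the fold threshold was raised to 4 on the log2 scale and 16 when that on −log10 p was raised to 5. The 12 loci with an enriched cluster became 127 with other loci allowed, 4 at 5000 bases or more from protein-coding loci, 6 with the fold threshold of 4, 7 with an input count of 2 or more and 7 on the strand of the locus. With other loci allowed, coding clusters enter by construction. The median over loci of the highest fold, 0.98, was 1.78 in loci with 3 or more clusters. The median fold of clusters was 0.56 under every alternative run. That is the commonest fold above 0, which many clusters share, so this agreement carries little weight. Among the highest folds of single loci, that of AY036118 was -3.44 with touching clusters merged. The alternatives without 2610307P16Rik and Mir99ahg, without AY036118, without Gm3764 (for clusters of 24 or more reads) and the locus count by strand were chosen after seeing the data. No paired analysis was possible because there is 1 library in each group.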
